A study of Mus musculus with 18 samples.

Results

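Transcript abundance was described in whole pancreas from 6 wild-type (WT) mice, which were 6 of the 18 mice of the study and the only members of the genotype group labelled WT. They were the count columns whose names mark that genotype, and no measured value was used to choose them. The other mice served here only as a frame of reference. They were 7 mice labelled KPC and 5 labelled KPC ASC KO. All 18 were of mixed 129Sv and C57BL/6 background, and pancreas was taken at 20 weeks of age and snap-frozen. In common use, KPC names a model of pancreatic cancer driven by mutations switched on in the pancreas, and ASC KO denotes loss of the inflammasome adaptor ASC, encoded by Pycard. The labels give no alleles, driver or promoter for these names, and no sex, litter, dissection batch or histology for any mouse, so whether the WT mice were littermates of the others is not known.

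The exocrine pancreas is built mainly of acinar cells, which make digestive enzymes as inactive precursors, pack them into zymogen granules and release them into ducts. Scattered among them lie the islets, whose alpha, beta, delta and PP cells secrete glucagon, insulin, somatostatin and pancreatic polypeptide. Duct cells, stellate cells, fibroblasts, vessels and resident leukocytes fill the remaining tissue. The organ lies against the duodenum, stomach, spleen, lymph nodes and visceral fat, so a dissected piece can carry a little of each.

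The libraries count unique molecular identifiers (UMIs) at the 3′ end of polyadenylated RNA, so that 1 count stands for 1 captured molecule and CPM, counts scaled to a library total of 1000000, can be ranked between genes without a length term. The 6 WT libraries held 294077 to 416879 counts, and 11955 to 13438 genes had a count in each. In all, 18103 of 25651 genes were detected in at least 1 WT library and 7779 in all 6. At this depth a gene with no count in the pooled 2131344 counts may still reach 1.41 CPM, the level of 3 counts, and such limits cover counting error only. Mitochondrially encoded RNA took 0.501 to 0.769% of counts. Xist, the RNA of the inactive X chromosome, was present in all 6 libraries at 20.6 to 80.9 CPM, and the Y-linked Ddx3y was counted in 5 of the same libraries at 6.27 to 29.4 CPM. Sex therefore could not be assigned from these genes, and RNA passing between pooled libraries was not tested. WT mouse 69 stood apart in Ctrc, which encodes chymotrypsin C, and in the gene copies of Rplp1, which encodes a ribosomal stalk protein. Its Ctrc level was 1288 CPM, above the KPC range (268 to 1178 CPM) and within that of KPC ASC KO (831 to 1509 CPM). In the share of Rplp1-family counts that fell on the copy Gm11942, mouse 69 lay in the KPC range. Its acinar enzyme sum lay within the WT range. Its genotype is known from its label alone, and whether that label is right was not tested. Every mean over 6 mice includes mouse 69, and the calls that were lost or could not be tested without it are named. Where 6 values stand in a row below, they follow the mice in the order 69, 1197, 1202, 1213, 1237 and 1238.

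The WT pancreas was dominated by secreted digestive enzymes. Ctrb1, chymotrypsinogen B1, was the most abundant gene in each of the 6 mice, with 52366 ± 4818 CPM (mean ± SD, n = 6, as are all means below). Its level was 45625, 50104, 50496, 58319, 52139 and 57515 CPM in mice 69, 1197, 1202, 1213, 1237 and 1238. Mice 1213 and 1238 were the high ones, and the highest value lay well within 1.5 times the lowest. The pancreatic amylase Amy2a5 followed at 39229 ± 3533 CPM and held rank 2 or 3 in each mouse. Rank 3 went to CT010467.1, a ribosomal RNA gene on chromosome 17, at 34716 ± 6394 CPM. It was counted although the libraries were primed at poly(A) tails, and it ranged from 27555 CPM in mouse 69 to 42989 CPM in mouse 1213.

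The other 17 of the 20 most abundant genes were all products of acinar cells. Proteases and their precursors were Prss2 (trypsinogen) at 29638 ± 3077 CPM, the carboxypeptidases Cpa1 at 28163 ± 3017 and Cpb1 at 15767 ± 1478, and the elastases Cela1 at 27727 ± 3421 and Cela3b at 23080 ± 2620. Try4 at 27586 ± 3964 CPM, Try5 at 25610 ± 3452 and 2210010C04Rik at 23434 ± 2165 are trypsinogen genes, and Ctrl, a chymotrypsin-like protease, reached 17879 ± 1709. Fat digestion was represented by pancreatic lipase (Pnlip, 25366 ± 1907 CPM), its cofactor colipase (Clps, 25202 ± 1191) and carboxyl ester lipase (Cel, 17786 ± 1643). The ribonuclease Rnase1 reached 23040 ± 2117 CPM and the granule protein syncollin (Sycn) 18767 ± 1880. Amy2a4, Amy2a2 and Amy2a3 reached 29844 ± 2776, 26733 ± 2372 and 23868 ± 1793 CPM. The amylase copies are near-identical to each other, as are the trypsinogen copies, so the split of counts within each family is uncertain. The 10 most abundant genes of a library took 29.9 to 36.1% of its counts and the 100 most abundant 65.9 to 77.2%. Only 56 genes exceeded 1000 CPM and 639 exceeded 100 CPM. Scaled per kilobase of exon, 17 of the 20 stayed among the first 20, and Ctrb1 stayed first.

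**Figure D1:**
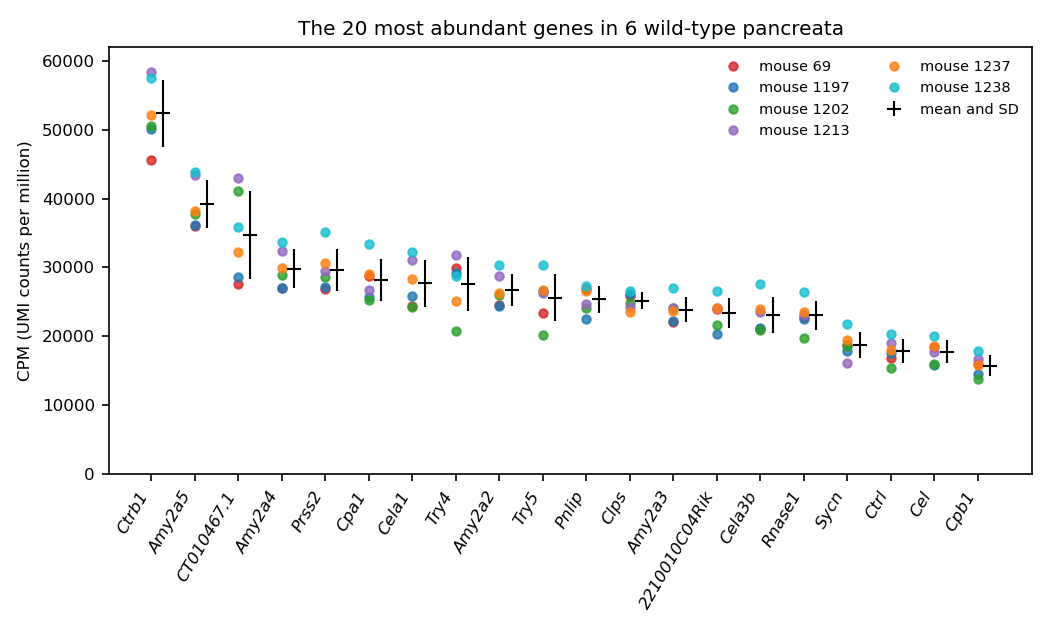
CPM (vertical axis, linear from 0) of the 20 most abundant genes (horizontal axis, by rank) in each WT mouse, as coloured points, with mean and SD in black. Ctrb1 lies highest in each mouse, the spread within a gene is narrow, and mouse 1238 is the highest for most enzymes, such as Prss2 at 35208 CPM.

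The promoters of 3 of these genes are shown because their output sets the scale of the data, with the proximal promoter of glucagon (Gcg) as an islet counterpart. Each line gives the 100 bases that end just before the annotated start, 5′ to 3′ on the gene's strand, from RefSeq on GRCm38.p6. Capitals mark TATAAA, the core of a TATA box, where it occurs on the gene's strand. The windows are chr8:111691011-111691110 on the minus strand for Ctrb1, chr15:100687921-100688020 on the minus strand for Cela1, chr19:58670265-58670364 on the plus strand for Pnlip and chr2:62483654-62483753 on the minus strand for Gcg.
Ctrb1: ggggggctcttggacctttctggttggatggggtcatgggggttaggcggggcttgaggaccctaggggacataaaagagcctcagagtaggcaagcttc
Cela1: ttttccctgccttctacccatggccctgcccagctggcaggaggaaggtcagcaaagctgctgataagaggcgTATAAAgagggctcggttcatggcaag
Pnlip: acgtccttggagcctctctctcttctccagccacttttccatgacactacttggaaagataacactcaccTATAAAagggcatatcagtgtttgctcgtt
Gcg: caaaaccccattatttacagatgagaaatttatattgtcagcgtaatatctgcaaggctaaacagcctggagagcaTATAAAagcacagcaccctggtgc
The match began 27 bases before the start in Cela1, 30 in Pnlip and 24 in Gcg, and these letters do not occur in the Ctrb1 window. Of the 17 among the 20 most abundant genes that have an entry in the RefSeq promoter table, 6 (35.3%) held TATAAA on either strand: Amy2a5, Prss2, Cela1, Try4, Pnlip and 2210010C04Rik. The share over all 27025 genes searched in windows of the same length was 6.57%, a gene being counted if any of its windows matched. Searched the same way on both strands, CACCTG was found in 5 of the 17 (29.4%) against 8.16% of all genes searched. CAGCTG was found in 2 (11.8%) against 6.76% and TTTCCC in 4 (23.5%) against 9.98%. CACCTG and CAGCTG are forms of the E-box CANNTG, the kind of site that basic helix-loop-helix factors of acinar cells bind. Among 8 islet hormone genes with an entry, TATAAA occurred in 2, Gcg and Ppy, and CACCTG in 1, Ghrl. These matches describe letters in a window and not binding.

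Acinar genes together took 592961 ± 43503 CPM, from 551229 in mouse 1202 to 665955 in mouse 1238. All 32 genes of a list of acinar enzymes were detected, between rank 1 and rank 523, where Amy1, the salivary and liver amylase, lay at 117 ± 10.2 CPM. Pnliprp1, a lipase-related protein, was at rank 21 with 15344 ± 1630 CPM and elastase Cela2a at rank 25. The 25 genes of acinar identity and granules summed to 47483 ± 3257 CPM. Among them were the trefoil peptide Tff2, the scavenger protein Dmbt1 and the trypsin inhibitor Spink1, at rank 28, 31 and 47. The transcription factors that keep acinar cells differentiated were far less abundant than their targets: Rbpjl lay at 426 ± 75.0 CPM, Bhlha15 at 237 ± 75.1 and Ptf1a at 62.2 ± 25.3.

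Islet genes summed to 5067 ± 2389 CPM, and insulin 2 (Ins2) was the first of them at rank 40. In single mice its rank ran from 30 to 90. The order of mean levels among hormones was Ins2 (2241 ± 1346 CPM), galanin (Gal, 892 ± 266), insulin 1 (Ins1, 471 ± 310), glucagon (Gcg, 452 ± 355), somatostatin (Sst, 172 ± 136), peptide YY (Pyy, 127 ± 58.8), pancreatic polypeptide (Ppy, 125 ± 94.7), amylin (Iapp, 84.8 ± 52.8) and ghrelin (Ghrl, 45.3 ± 26.6). For every pair of neighbours in this order the ranges of mean ± SD overlapped. Gal stands here by its place on the list, and which cells made it was not tested. The regulators that define beta cells were at the edge of detection: Pdx1 lay at 9.22 ± 6.41 CPM, Nkx6-1 at 4.44 ± 5.03, Mafa at 2.31 ± 2.82, and Rfx6 had no count in the pooled libraries. In bulk tissue, fewer cells of a type and less RNA per cell cannot be told apart.

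Duct genes summed to 3742 ± 390 CPM, within the islet range of 2353 to 7589 but with a range of only 3203 to 4284. Clusterin (Clu) led at rank 37 with 2395 ± 344 CPM, followed by keratins Krt8 (245 ± 37.5) and Krt18 (196 ± 23.6), the mucin Muc1 (189 ± 39.1) and Krt19 (128 ± 39.6). These leading genes are not made by duct cells alone. Markers more particular to ducts were low: Sox9 was at 46.1 ± 6.21 CPM, Krt7 at 32.0 ± 14.3 and the chloride channel Cftr at 5.09 ± 3.41.

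Stromal genes summed to 2256 ± 409 CPM, the lowest of the 5 class sums. The order of these sums depends on which genes each list holds. Clu alone gave 2395 CPM of the duct sum of 3742. Muc1 is counted in the acinar and duct sums and Krt19 in the duct and stromal sums. The sums therefore do not rank the cell types by amount. Fibroblast and stellate cell genes made up 1554 ± 261 CPM of this, led by gelsolin (Gsn) at 288 ± 60.7, the matrix proteoglycan decorin (Dcn) at 195 ± 42.0, osteonectin (Sparc) at 172 ± 36.1 and the collagen chain Col1a2 at 144 ± 26.2. Contractile genes of smooth muscle and pericytes summed to 312 ± 134 CPM and endothelial genes to 191 ± 36.0. Pecam1, an adhesion protein of endothelium, lay at 13.5 ± 7.61 CPM. Schwann and neural genes reached 51.5 ± 34.3 CPM, with Gfap, Prph and Tubb3 at 0.

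Immune genes summed to 5063 ± 522 CPM, and most of this, 2787 ± 218 CPM, came from plasma cell genes. The kappa light chain constant region Igkc held rank 51 with 1523 ± 187 CPM, the heavy chain Ighg1 followed at 682 ± 40.7 and Ighm at 191 ± 42.5. B cells also make immunoglobulin, so the plasma cell sum is not of plasma cells alone. Without Ighm it was 2595 ± 189 CPM. Macrophage genes came next at 869 ± 160 CPM, led by lysozyme (Lyz2, 412 ± 62.0), and MHC class II genes reached 723 ± 102 CPM, led by H2-Aa at 224 ± 41.5. Lymphocytes left little RNA: B cell genes summed to 119 ± 29.8 CPM, T cell genes to 68.3 ± 14.9 and natural killer cell genes to 13.2 ± 5.65. The T cell receptor subunit gene Cd3e had 2 counts in all 6 libraries. Neutrophil genes summed to 42.7 ± 17.6 CPM with Camp, Ly6g and Mmp8 at 0. Mast cell genes summed to 15.1 ± 18.3 CPM with Fcer1a and Hdc at 0.

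Genes that mark neighbouring organs were also counted. Genes of stomach and gut epithelium summed to 15955 ± 2892 CPM, of which 11655 ± 1356 were Zg16, a lectin that acinar zymogen granules also hold. Without Zg16 the sum was 4301 ± 2695 CPM, from 1506 in mouse 1238 to 7491 in mouse 69. Haemoglobins and other erythroid genes summed to 2443 ± 1740 CPM, adipocyte genes to 478 ± 273 and genes of lymph node and spleen stroma to 232 ± 53.7. Hepatocyte genes summed to 175 ± 33.2 CPM, most of it transthyretin (Ttr, 153 ± 24.7), which islet alpha cells also make. Skeletal muscle genes had 9 counts in all, with Acta1, Actn3, Myh1, Myh2, Myl1 and Tnnt3 at 0. Reg1, a secreted acinar protein that rises in pancreatitis, lay at 10403 ± 2371 CPM, between 6821 in mouse 1237 and 13530 in mouse 1197. Cell cycle genes summed to 88.0 ± 21.8 CPM, and the proliferation marker Mki67 had 5 counts.

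**Figure D2:**
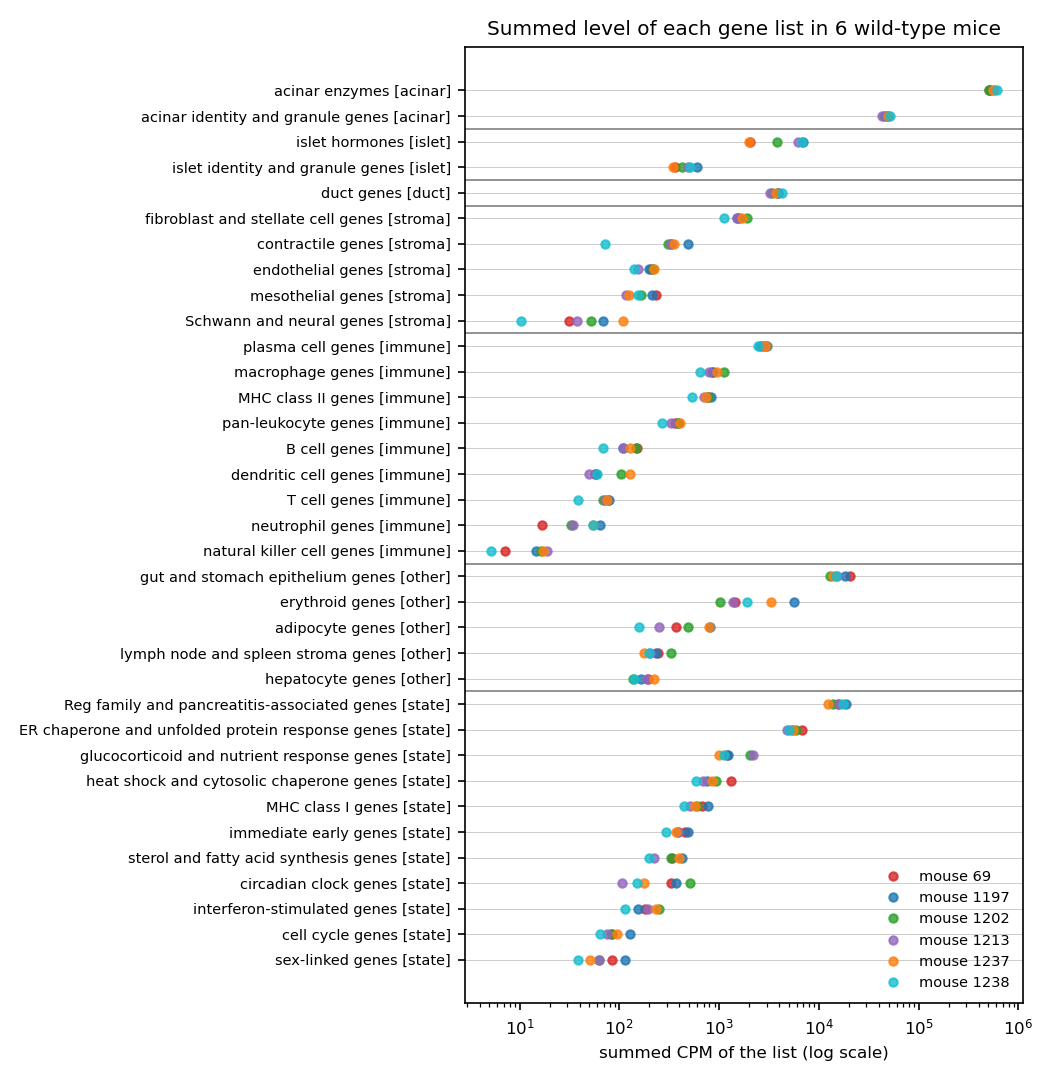
Summed CPM (horizontal log axis) of each gene list (rows, grouped by class) in the 6 WT mice (coloured points), leaving out mast cell and skeletal muscle genes, which were at 0 in at least 1 mouse. Acinar sums lie tightly together at the right, whereas the 6 values for islet hormones, erythroid and adipocyte genes are spread wide.

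To ask which genes differed between the 6 mice, 2 tests were run on the 2663 genes with a mean of at least 10 counts per library, which held 90.1% of all counts. The first test asks whether a gene's counts vary more than Poisson sampling allows. The second asks whether they vary more than the typical gene of the same abundance, whose variation is given by edgeR's dispersion trend. Beyond sampling noise, 1155 genes (43.4%) passed at an adjusted p under 0.05 in edgeR's goodness-of-fit test with Benjamini-Hochberg adjustment. Beyond the typical gene, 52 (1.95%) passed, and 172 had an unadjusted p under 0.05. The biological coefficient of variation (CV, the SD between mice over the mean after the counting share is removed) had a median of 0.223 and quartiles of 0.108 and 0.346. Mouse 69 was the highest of the 6 in 450 of the 1155 genes, and mouse 1238 was the lowest in 546. Mouse 1238 also had the largest share of acinar enzymes, 61.4% of its counts against 50.5 to 57.2% in the others. With edgeR's TMM factors (trimmed mean of M values) in place of library totals, which gave mouse 1238 a factor of 0.781, 722 genes passed the first test and 55 the second. Without mouse 69 the first count was 763. Each library is 1 mouse, so the spread covers animal, tissue piece and library preparation together.

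**Figure D3:**
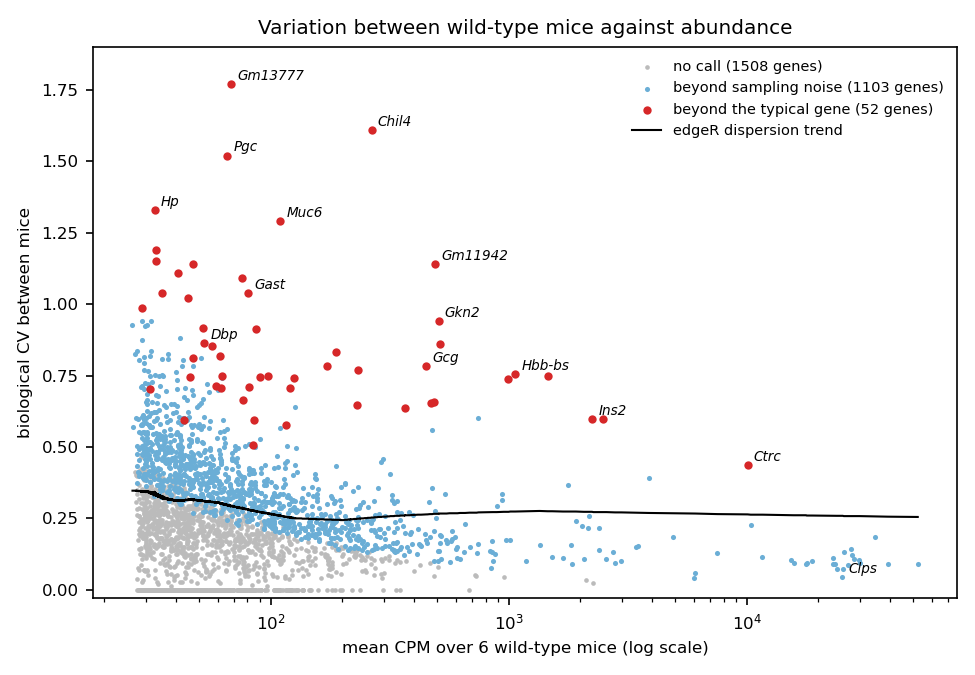
Biological CV between the 6 WT mice (vertical axis) against mean CPM (horizontal log axis) for the 2663 tested genes, coloured by call, with the edgeR trend as a black line. The 52 genes beyond the trend reach up to a CV of 1.77 in Gm13777 and include 1 highly abundant gene, Ctrc, with a CV of 0.436, while Clps lies at 0.046 on the library totals plotted here and at 0.176 with TMM factors.

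Counts by class are set beside the shares over all tested genes, 43.4% in the first test and 1.95% in the second. The first share rises with the counts of the genes tested, from 31.2% at a mean count minimum of 5 to 58.1% at 20. Of 54 tested acinar genes, 50 passed beyond sampling noise and 1, Ctrc, beyond the typical gene. Their median biological CV was 0.119 beside 0.223 over all tested genes, but this order depends on the scaling. Acinar genes make up 59.3% of a library on average, and with TMM factors their median CV was 0.240 beside 0.169 over all tested genes, with 45 and 1 of them past the tests. Ctrb1, for example, had a CV of 0.0917 on library totals and 0.242 with TMM factors, and Amy2a5 0.0896 and 0.246. Whether acinar genes varied less or more than the median gene is thus not settled by these data. For islet genes the numbers were 11 and 7 of 13 tested, with a median CV of 0.594, and 11 and 7 with a median of 0.686 under TMM factors. Duct genes gave 6 and 0 of 13 (median CV 0.271). Stromal genes gave 12 and 1 of 22 (0.271, the 1 being Actg2). Both were near the shares over all genes at an adjusted p under 0.05. At an unadjusted p under 0.05 in edgeR's second test, however, were 7 of the 22 stromal genes, beside 172 of all 2663 tested genes. Immune genes gave 8 and 0 of 27 (0.127). At a background of 1.95%, a count of 0 among so few genes does not set a class apart. Most members of 3 of these classes had too few counts to be tested, since 13 of 37 islet, 22 of 70 stromal and 27 of 110 immune genes reached the minimum. No duct or immune gene had an unadjusted p under 0.05 in the second test, and DESeq2 called none of them a dispersion outlier.

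Of the 9 tested islet hormones, 6 varied more than the typical gene of their abundance, and Gal, Pyy and Ghrl passed the first test alone. Ins2 was 664, 2973, 1966, 2880, 833 and 4130 CPM (biological CV 0.599, edgeR adjusted p = 0.000845 in the second test). Gcg was 206, 997, 253, 746, 68.0 and 442 CPM (CV 0.782, adjusted p = 5.66e-07). Mice 69 and 1237 were thus the lowest in both hormones, and mice 1197 and 1213 were high in both. Sst ran from 20.4 CPM in mouse 1237 to 372 in mouse 1197 (CV 0.782, adjusted p = 4.88e-07), and Ins1 from 93.6 in mouse 69 to 861 in mouse 1238 (CV 0.654, adjusted p = 5.25e-06). Ppy, Iapp and the granule protein chromogranin A (Chga) also passed, with CVs of 0.743, 0.594 and 0.712. Of these, Ppy was no longer called without mouse 1197 (311 CPM there, 45.6 to 119 in the others), Chga without mouse 1197 or 1237, and Iapp without mouse 69, 1197, 1213, 1237 or 1238. The hormones did not keep a fixed ratio. Ins2 was 2.98 to 3.86 times Gcg in mice 69, 1197 and 1213 and 7.77, 12.2 and 9.34 times in mice 1202, 1237 and 1238. The Gcg value of mouse 1237 rests on 20 counts.

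A set of genes known from the stomach lining was the other large group. Tff1, the trefoil peptide of gastric surface cells, was 4044, 4367, 1578, 2902, 1044 and 1028 CPM (CV 0.598, adjusted p = 0.00459). The gastrokines Gkn1 and Gkn2, though not Gkn3, followed nearly the same order of mice. Gkn1 was 2005, 1779, 582, 978, 442 and 206 CPM (CV 0.739, adjusted p = 7.35e-06) and Gkn2 was 1185, 992, 161, 514, 133 and 64.2 CPM (CV 0.941, adjusted p = 5.2e-12). Mice 69 and 1197 were high, 1213 intermediate and 1237 and 1238 low. Muc5ac, the mucin of the same surface cells, was 163 and 198 CPM in mice 69 and 1197 but 6.80 and 7.71 in mice 1237 and 1238 (adjusted p = 4.53e-08). Pgc, pepsinogen C, was 266 CPM in mouse 69, 0 in mouse 1237 and at most 56.4 elsewhere (CV 1.52, adjusted p = 1.29e-12). Without mouse 69 it had 46 counts left, too few to be tested, and a CV of 0.928. Gast, the hormone gastrin of the gastric antrum, was 122, 230, 59.2, 59.6, 6.80 and 5.14 CPM (CV 1.04, adjusted p = 1.64e-08). Gast was 2.93 to 15.4 CPM in the 7 KPC mice and at most 4.71 in the 5 KPC ASC KO mice, so its 4 higher WT values lay above every mouse of the other groups, whereas Gkn1 at 504 to 1485 CPM in KPC overlapped with WT. Psca, Mucl3, Lgals2 and Gsta1, named after their values were seen, passed too and were each highest in mouse 69. The Tff1 call was lost without mouse 1237 (adjusted p = 0.0792), that of Lgals2 without mouse 1238, that of Psca without mouse 69 or 1237, and that of Mucl3 without mouse 69, 1197, 1237 or 1238.

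Other epithelial genes that passed did not follow that order. Muc6, the mucin of gastric and duodenal glands, was 401 CPM in mouse 1237 and 26.3 to 87.8 in the others (CV 1.29, adjusted p = 1.02e-08). Gkn3 was also highest there, at 1119 CPM against 278 to 533. Tff2, which lies beside Tff1 on chromosome 17 and is made by both gastric glands and acinar cells, was 6743 CPM in mouse 1237 and 4279 to 4720 elsewhere, and did not pass the second test (adjusted p = 1.000). Chil4, a chitinase-like lectin, was 1126 CPM in mouse 1238 and 19.2 to 247 in the others (CV 1.61, adjusted p = 2.92e-25). The small proline-rich protein genes Sprr2a1, Sprr2a2 and Sprr2a3, close copies on chromosome 3 whose counts may be split between them, were all highest in mouse 1238, Sprr2a1 at 3503 CPM against 552 to 1627. Pigr, the receptor that carries IgA across epithelium, was 157 CPM in mouse 1238 and 24.5 to 85.0 elsewhere (adjusted p = 0.0310), and Prap1, an intestinal secreted protein, was 218 in mouse 1237 and 12.0 in mouse 69 (adjusted p = 6.43e-07). Muc6 was no longer called without mouse 1237, Gkn3 without mouse 1197, 1202 or 1237, Sprr2a1 and Sprr2a3 without mouse 1238, Sprr2a2 without mouse 1213 or 1238, and Pigr without mouse 1197 or 1238. In all, 6 of the 7 tested stomach and gut genes passed beyond the typical gene, and Zg16 (CV 0.115) was the exception. The summed level of this list without Zg16 moves with these genes by construction, and the part of attached stomach or duodenum in them was not tested.

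Blood, fat and smooth muscle genes formed smaller groups. The beta globin Hbb-bs was 549, 2495, 362, 599, 1500 and 889 CPM (CV 0.754, adjusted p = 0.000389). Hbb-bt (CV 0.860) and Hba-a1 (CV 0.638) passed as well, and Hba-a2 (CV 0.561) did not (adjusted p = 0.116). Mouse 1197 was the highest in all 4. Hbb-bs lost its call without mouse 1197 (adjusted p = 0.211), and Hba-a1 without mouse 1197, 1202 or 1213. The adipocyte genes Car3, carbonic anhydrase 3, and Cfd, adipsin, were highest in mouse 1197 at 238 and 223 CPM and lowest in mouse 1238 at 20.6 and 41.1 (adjusted p = 6.87e-05 and 0.0492), and the Cfd call was lost without mouse 1197, 1213, 1237 or 1238. They were 2 of 5 tested adipocyte genes. Among the others, Lpl, lipoprotein lipase, was lowest in mouse 69 at 31.2 CPM and highest in mouse 1202 at 105 (adjusted p = 1.000), and Scd1, a fatty acid desaturase, was highest in mouse 1237 at 91.8 CPM (adjusted p = 0.248). Actg2, the enteric smooth muscle actin, ran from 0 in mouse 1238 to 57.6 CPM in mouse 69 (adjusted p = 0.0152), and its call was lost without mouse 1238 and could not be tested without mouse 69 or 1197. Acta2 and Tagln, contractile genes that were also lowest in mouse 1238 at 5.14 and 15.4 CPM, did not pass (adjusted p = 0.684 and 0.748).

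**Figure D4:**
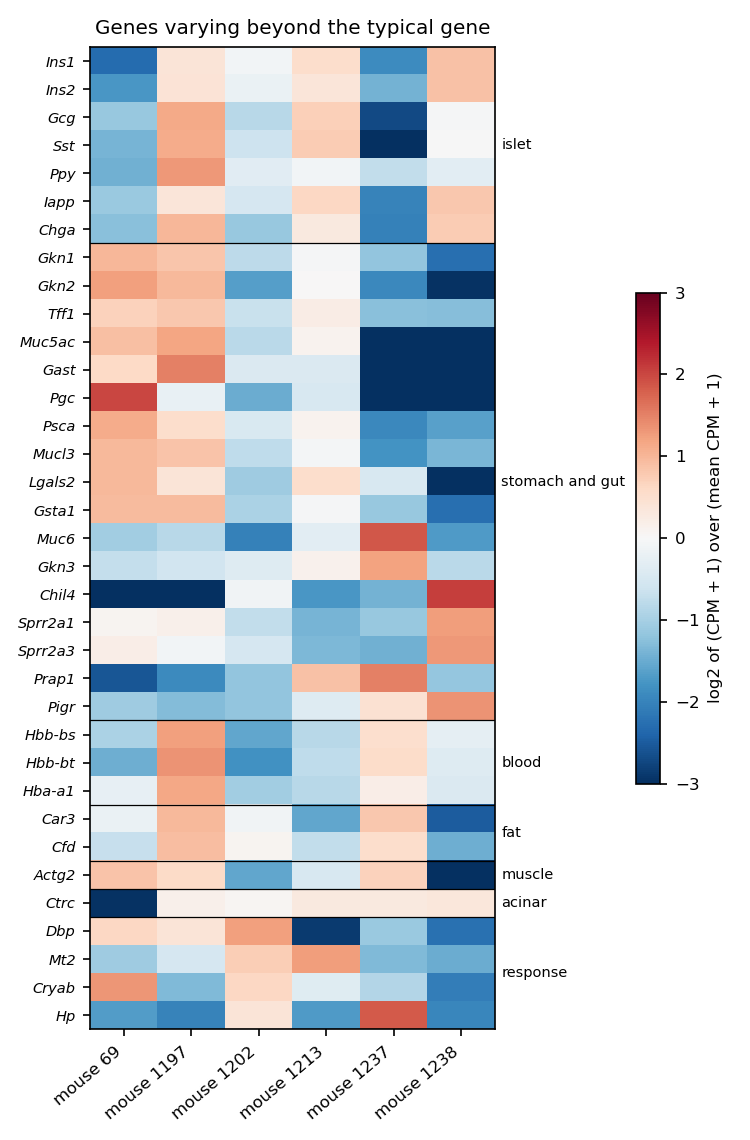
Level of genes that varied beyond the typical gene (rows, grouped by hand after the values were seen) in each WT mouse (columns), as the log2 of CPM + 1 over the mean + 1, from blue (below the mean) to red (above), with colours limited at 3 either way. Gkn1, Gkn2, Tff1 and Muc5ac share red cells in mice 69 and 1197, islet hormones are blue in mice 69 and 1237, and Ctrc is blue in mouse 69 alone.

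A few genes of daily rhythm, stress and acute phase also passed. Dbp, a clock output transcription factor, was 125 CPM in mouse 1202, 81.6 in mouse 69 and 68.6 in mouse 1197, and 6.27, 23.8 and 10.3 in mice 1213, 1237 and 1238 (CV 0.865, adjusted p = 0.000786). Its relative Tef had the same 3 mice on top, at 102, 84.0 and 63.7 CPM, without passing (adjusted p = 0.0809). These were the only 2 of 18 clock genes with enough counts to be tested. Nr1d1, a repressor of the clock with 53 counts in all, did not have mouse 69 on top, at 2.40, 44.1, 52.6, 0, 30.6 and 23.1 CPM. The hours at which tissue was taken are not in the labels. Mt2, a metallothionein induced by glucocorticoids and zinc, was 451 CPM in mouse 1213 and 316 in mouse 1202 against 66.8 to 132 (adjusted p = 6.63e-06). Cryab, a small heat shock protein, ran from 12.8 CPM in mouse 1238 to 144 in mouse 69 (adjusted p = 0.00684), and was not called without mouse 69 (adjusted p = 0.462). Hp, the acute phase protein haptoglobin, was 119 CPM in mouse 1237 and 7.35 to 42.7 in the others (adjusted p = 0.000284). Several widely expressed genes were high in 1 mouse. Tcf12, a partner of basic helix-loop-helix factors, was 115 CPM and Poldip3, an RNA-binding protein, 112 CPM in mouse 1202, at most 22.1 and 27.0 elsewhere. Klc1, kinesin light chain 1, was 108 CPM in mouse 1197 and Arhgef26, a guanine nucleotide exchange factor, 137 CPM in mouse 69. Without the high mouse each of these 4 was below the count minimum and was not tested, and the CV was then 0 for Tcf12 and Poldip3, 0.540 for Klc1 and 0.556 for Arhgef26. Hp was likewise not tested without mouse 1202 or 1237. Psmd11, a proteasome subunit, was 126 and 103 CPM in mice 1237 and 1197 and at most 26.4 in the rest, and Tnrc18 was 126 CPM in mouse 1237 and 64.2 in mouse 1238. Fam8a1 was 69.0 and 64.8 CPM in mice 1202 and 69 and at most 13.6 elsewhere. The calls of Poldip3 without mouse 1213, Psmd11 without mouse 1237 and Fam8a1 without mouse 1197 or 1238 were lost, and Fam8a1 could not be tested without mouse 69 or 1202, nor Tnrc18 without mouse 1237.

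Ctrc was the only acinar gene past the second test. Chymotrypsin C degrades and activates trypsinogen in the gut and the granule. Its level was 1288, 11228, 10492, 12465, 12303 and 12855 CPM (CV 0.436, adjusted p = 0.000126). Without mouse 69 the CV was 0.0808 and the adjusted p 1.000. All 12 mice of the other groups lay far below the other 5 WT mice, at 268 to 1178 CPM in KPC and 831 to 1509 CPM in KPC ASC KO. The summed acinar enzyme level of mouse 69, 511638 CPM, lay within the WT range of 504616 to 614081. C57BL/6 mice are known to carry a natural frameshift deletion in Ctrc, and which allele each mouse carried was not tested.

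Copies of Rplp1 stood apart in the same mouse. These genes were chosen after their values were seen. Gm11942, at chr4:32964888-32965232 on the plus strand, is a processed copy of Rplp1 without introns, and the Rplp1 gene lies at chr9:61913284-61914542 on the minus strand. In the GENCODE M21 transcripts on GRCm38, the coding sequence of Rplp1 and the matching stretch of Gm11942 differ at 9 of 345 bases (97.4% identity). Gm11942 was 1626 CPM in mouse 69 and 213 to 340 CPM in the other WT mice (CV 1.14, adjusted p = 1.75e-07), while Rplp1 was 1159 CPM in mouse 69 and 2034 to 2443 elsewhere. The copies Gm13777 (92.5% identical) and Gm17511 (95.0%) were likewise highest in mouse 69, at 314 and 249 CPM against at most 27.0 and 78.2. Without mouse 69, Gm13777 had too few counts to be tested and a CV of 0.250. Of the counts of Rplp1 and these 3 copies, Gm11942 held 48.6% in mouse 69 and 9.14 to 12.3% in the other 5 WT mice. The share was 45.6 to 48.8% in the 7 KPC mice, 31.9 to 34.0% in KPC ASC KO mice 318, 335 and 388, and 7.84 and 8.39% in KPC ASC KO mice 377 and 384. The mouse 69 library thus lay in the KPC range for this share, and the WT and KPC groups overlapped only through it. Without mouse 69 the CV of Gm11942 was 0.144 and its call was lost, as was that of Gm17511, which also failed without mouse 1197, 1202 or 1213. What set the split of reads among the copies was not tested. Mouse 69 did not stand apart in this way alone: 30 tested genes had mouse 69 as the lone WT mouse in the KPC range and set off from the other WT mice. For mice 1202, 1237, 1197, 1213 and 1238 the numbers were 28, 10, 9, 7 and 2, so mice 69 and 1202 both had more such genes than the other 4. These mice were also set off high most often whatever the KPC range, in 91 and 70 genes against 6 to 39 in the other 4. The numbers are therefore no measure of likeness to KPC.

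**Figure D5:**
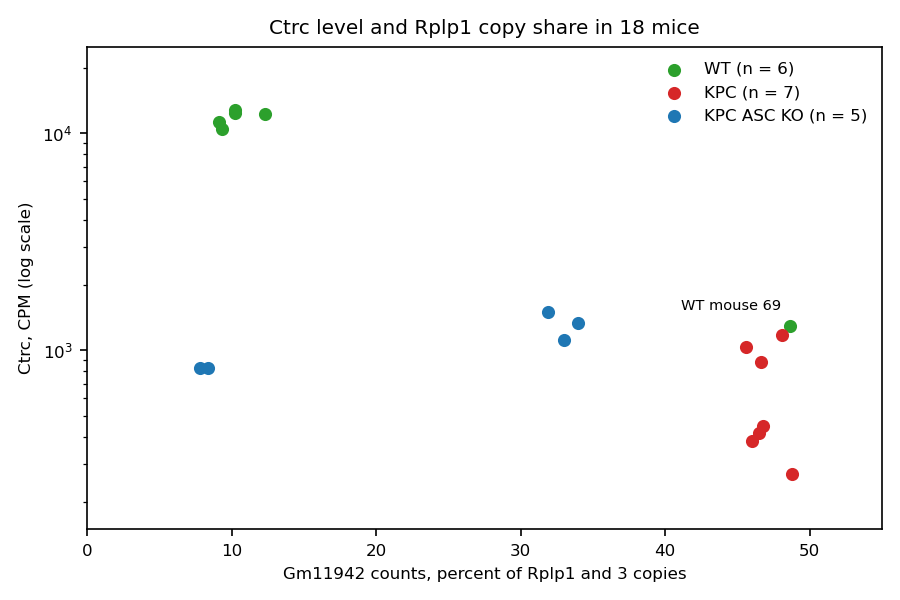
Ctrc level in CPM (vertical log axis) against the percent of Rplp1-family counts assigned to Gm11942 (horizontal axis) in 18 mice, coloured by genotype. WT mouse 69 (1288 CPM, 48.6%) lies beside the KPC mice, and the other 5 WT mice lie together at 10492 to 12855 CPM and 9.14 to 12.3%.

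The other 5 predicted genes or pseudogenes among the 52, and 1 protein-coding gene outside the groups above, are named after their values were seen. Gm7476 was 156 CPM in mouse 69 and 15.4 to 53.9 elsewhere, and was not testable without that mouse (CV then 0.525). Gm8158 was 2.57 CPM in mouse 1238 and 72.1 to 132 in the others, and Gm5781 was 0 in mouse 1237 and 28.3 to 72.3 in the others. The last 2 lost their calls without mouse 1238 and mouse 1237. Gm15318 is antisense to Tff1 and overlaps it, and its highest value, 149 CPM in mouse 1197, coincides with that of Tff1. Whether the authors counted by strand is not given, so the 2 genes cannot be told apart. Gm15318 and the glutathione transferase copy Gm3776 were each no longer called without mouse 1197 or 1238. Rapgef1, an exchange factor at 113 CPM in mouse 1197 and 78.2 in mouse 1237, was lost without mouse 1197, 1213 or 1238.

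At the other end, the 10 genes with the lowest CV on library totals, among 185 with a mean of at least 100 counts, were products of acinar cells, ribosomes and plasma cells. Clps at 25202 ± 1191 CPM had a CV of 0.046, and Klk1, the tissue kallikrein, at 5989 ± 272 CPM had one of 0.0397. With TMM factors these were 0.176 and 0.175, above the median tested gene (0.169), so their low rank holds for library totals only. Just 1 of the 10, Tmed6, was among the 10 lowest with TMM factors, and 8 of the 10 then lay below the median gene. On library totals both Clps and Klk1 still passed the first test. Gp2, the chief membrane glycoprotein of zymogen granules, at 2121 ± 109 CPM, Cuzd1, another granule protein, at 954 ± 68.5, and Tmed6, of the p24 family of secretory pathway cargo receptors, at 293 ± 31.4 did not pass it. Nor did the ribosomal proteins Rpl41 (2272 ± 95.5), Rplp2 (350 ± 27.1) and Rps15a (296 ± 16.1) or the translocon subunit Ssr4 (338 ± 27.5). Ighg1 belonged here too, with 640 to 739 CPM in the 6 mice and a CV of 0 once the counting share was removed, or 0.113 with TMM factors. None of the 11 tested immunoglobulin or T cell receptor segments passed edgeR's second test (none at an unadjusted p under 0.05 and none by DESeq2), and 6 passed the first, shares near those over all tested genes. The 80 tested ribosomal protein genes had a median CV of 0.207, and 58 passed the first test, above the 43.4% over all genes. That share rose to 58.1% at a mean count minimum of 20, so this count does not separate abundance from variation. None of the 80 passed the second test, where 1.95% of all genes passed (3 at an unadjusted p under 0.05, none by DESeq2). With TMM factors the median CV of the 80 was 0.122, and 29 passed the first test.

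Spread between WT mice was set beside that of the other groups. Over the same 2663 genes, the median biological CV was 0.223 among WT mice, against 0.297 among KPC and 0.273 among KPC ASC KO mice. These CVs were on library totals, over genes chosen by their WT counts. The part of scaling in their order was not tested. For each class, the absolute deviation of each mouse's log2 summed CPM from its group's median was compared between groups in exact permutation tests, two-sided, with p-values adjusted by Benjamini-Hochberg over all 10. The mean deviation of the acinar sum was 0.08 in WT and 0.95 in KPC (exact permutation p = 0.0262, adjusted p = 0.131), and that of the immune sum was 0.10 and 0.92 (exact permutation p = 0.0484, adjusted p = 0.161). Duct genes deviated by 0.11 in WT and 0.55 in KPC ASC KO (exact permutation p = 0.0216, adjusted p = 0.131). Islet genes deviated by 0.65 in WT mice, against 0.83 in the KPC and 0.36 in the KPC ASC KO group, with adjusted exact permutation p values of 0.687 and 0.352. None of the 10 comparisons passed. The acinar comparison with KPC did pass when KPC mouse 40, 43, 89, 145 or 154 was left out, with the lowest adjusted exact permutation p of 0.0108, and the immune one without KPC mouse 40, 89, 145 or 154. The comparison of duct genes with KPC ASC KO passed when any 1 of the 5 KPC ASC KO mice was left out, the highest adjusted exact permutation p then being 0.0476. With a WT mouse left out instead, no comparison passed, and the adjusted exact permutation p for this one reached 0.227. Leaving out a mouse of an odd-sized group also removes a deviation of 0 that such a group holds by construction. These passes therefore do not establish a difference in spread. The acinar sum itself ran from 551229 to 665955 CPM in WT, from 54765 to 455871 in KPC and from 372405 to 642841 in KPC ASC KO, so the WT and KPC ranges did not overlap. Library totals were also higher in KPC, with a median of 917213 counts against 354088 in WT, and their part in the spread was not tested.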

How the data were processed

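RNA was measured in 18 pancreas libraries, each from 1 mouse. Per the labels' protocols, libraries started from 20 ng of total RNA, and poly(A) priming added an 8 bp index and a 10 bp UMI. The authors deposited raw whole-number counts of UMIs per gene, not normalised. Per the submitters' processing notes they used builds GRCm38 and mm10 with limma 3.50.0, edgeR 3.36.0 and R 4.1.2. For the aligner, the rule for collapsing UMIs and the use of strand, the sources used here give no statement. Groups were taken from the genotype label.

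From the counts, CPM on library totals, ranks, summed CPM of 37 gene lists (543 of 550 entries had a row) and biological CVs were computed here with R 4.3.3, edgeR 4.0.16 and DESeq2 1.42.0. Variation was tested by edgeR's goodness of fit to a common level (5 degrees of freedom), first at Poisson variance and then at the trended dispersion of the 6 WT mice, for genes with a mean of at least 10 counts and with Benjamini-Hochberg adjustment over all of them. A check on simulated data used a flat dispersion for most genes, whereas the trend in these data changes with abundance. It therefore does not cover the second test as run here. At 294077 to 416879 counts per library, a gene at 10 counts is measured only roughly.

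The rule for named genes took the 20 most abundant genes, up to 4 leading members of each list plus members past the second test, the 20 largest biological CVs among genes past it at 20 CPM or more (predicted genes, pseudogenes and receptor or antibody segments left out), and the 10 most uniform genes with at least 100 counts. Other list members and genes past the second test were named after their values were seen. The members and lists were chosen with earlier results of these data known. Scaling, count minimum, dispersion model, statistic and left-out mice were varied. Lists less Zg16 or Ighm were added after seeing the data. Some items are not reported here.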

Additional observations from a re-analysis of the deposited data

Results flagged for a closer look

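Of 202 values examined over the 6 WT mice, 27 had 1 mouse set off from the others, its gap to the nearest taking more of the whole range than Dixon's criterion for 6 values allows. Chance flags about 1 in 20 values that were not chosen for their spread, but 52 of these 202 were genes already past the second test, and they held 17 of the 27. Of the other 106 genes 8 had a mouse apart, and of 44 summed lists 2, so the total is no measure of an excess.

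Mouse 69 was the mouse apart for Ctrc (1288 CPM, low) and Rplp1 (1159, low), and for high values of Gm11942 (1626), Gm17511 (249), Gm13777 (314), Gm7476 (156), Pgc (266) and Arhgef26 (137). It was also high for 2 chaperones, the pancreas-specific disulfide isomerase Pdia2 (2411 CPM against 1588 to 1802) and the constitutive heat shock protein Hspa8 (293 against 65.8 to 126). Mouse 1237 was high for Tff2 (6743 CPM), which gastric glands and acinar cells both make, and for the gastric genes Gkn3 (1119) and Muc6 (401). High there too were Hp (119), the leukocyte surface peptide Cd52 (91.8 against 43.7 to 52.6) and summed mast cell genes (51.0 against 0 to 13.2). The mast cell list had only 29 counts over all 6 libraries, so its value rests on few counts.

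Mouse 1238 was high for Chil4 (1126 CPM), Sprr2a1 (3503) and Sprr2a3 (576), and low for the mitochondrial chaperonin Hspe1 (48.8 against 76.0 to 91.2) and summed T cell genes (38.5 against 69.0 to 78.4). Mouse 1197 was high for Ppy (311 CPM), Klc1 (108) and the transcription factor Jund (127 against 69.4 to 88.8). Mouse 1202 was high for Tcf12 (115 CPM), Poldip3 (112) and the lymphatic chemokine Ccl21a (201 against 85.0 to 116). No value set mouse 1213 apart.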

How the results depend on the processing

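Scaling and the count minimum moved the number of genes past sampling noise, and the dispersion model moved the number past the typical gene. The first count (1155) was 722 with TMM factors, 716 with DESeq2 size factors and 723 of 1244 tested genes at a mean count minimum of 20, and rose to 1577 of 5050 at a minimum of 5 and 1691 of 18103 with no filter. Leaving out 1 mouse gave 763 (without mouse 69) to 1164. The second count (52) was 80 at a minimum of 5, 116 with no filter, 25 with the dispersion trend of all 18 mice, and 29 as DESeq2 dispersion outliers. It was 37 to 53 with 1 mouse left out, the lowest without mouse 1197. All 52 genes kept their call under each of the other 3 scalings, and 16 kept it under every alternative that tested them. Of the 52, 29 lost their call without some 1 mouse, 8 more could not be tested without some 1 mouse because too few counts remained, and 15 were tested and called without each mouse in turn. The genes not tested were 6 without mouse 69, 4 without mouse 1202, and 2 each without mice 1197 and 1237. For the results that moved, the cause was not tested. The median biological CV (0.223) was 0.169 with TMM factors and 0.191 to 0.229 with 1 mouse left out.

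On totals without the acinar enzymes, which raises every share by construction, class sums were 1322596 CPM for acinar, 11441 for islet, 8323 for duct, 4932 for stromal and 11148 for immune genes. In the comparison of spread between groups, leaving out 1 mouse gave differences on the log2 scale (WT minus KPC) of -1.02 to -0.67 for acinar, -0.34 to 0.08 for islet, -0.39 to -0.13 for duct and -0.98 to -0.62 for immune genes. The islet difference turned positive without KPC mouse 43. Against KPC ASC KO the differences were -0.23 to -0.06 for acinar, -0.57 to -0.38 for duct, -0.74 to -0.29 for stromal and -0.60 to -0.24 for immune genes. The acinar, stromal and immune ones passed without mouse 318, 335 or 388, and the duct difference from KPC passed without KPC mouse 40. A group with an odd number of mice holds 1 mouse at its own median, with a deviation of 0 by construction, so leaving out 1 mouse changes the statistic itself. TMM factors and linear deviations changed no direction and no call of spread. No paired analysis was possible because the groups share no mouse numbers and the WT mice were compared among themselves.

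Depth limits the account of low genes: 2663 of 18103 detected genes were tested, and lists of T cells, natural killer cells, neutrophils, mast cells and cell cycle genes had no member among them.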
